A study of Arabidopsis thaliana with 18 samples.

Results

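The SMALL AUXIN UP RNA (SAUR) genes were examined in whole Arabidopsis seedlings of 2 genotypes at 3 times of a short day. The members were 49 SAUR loci out of 24745 nuclear genes with values. They were listed by locus identifier, with earlier results of these data known. Each of the 49 was represented by 1 transcript. In the RefSeq annotation 31 further loci carry a SAUR name, and 28 of them had values, so the 49 do not cover the whole family. These further loci were matched by name alone, and AT5G01830 among them carries the same name as the member SAUR21 (AT5G18030). SOB3-D is an activation-tagged line that overexpresses SOB3, an AT-hook protein of the AHL family. In sob3-6 a missense change lies within the AT-hook of SOB3 in the SOB3-D background, and the allele is dominant negative. Both genotypes thus carry the activation tag, and no wild type was compared here. Both lines are in the Col-0 background and were grown on medium with 1% sucrose at 22 °C under 8 h of light and 16 h of dark. Seedlings were 5 days old at ZT4 (in the light) and ZT9 (early in the night) and 6 days old at ZT24 (dawn), so that age and time of day cannot be told apart between ZT24 and the other times. There were 3 replicates of each genotype at each time, 18 libraries in all, with 6012747 to 11076919 mapped reads each. The SOB3 transcript itself was at 168.1 to 191.4, 132.8 to 156.8 and 210.5 to 234.8 CPM in SOB3-D at ZT4, ZT9 and ZT24. In sob3-6 it was at 227.1 to 271.5, 236.9 to 248.2 and 314.2 to 331.4 CPM, above SOB3-D without overlap at each time. The genotypes thus differed in SOB3 transcript level as well as in the missense change. Since the mutation is a missense change, this level does not check the labels. Whole seedlings hold root and photosynthetic shoot tissue, whose markers are given at the end. Fewer cells of a type and less RNA per cell cannot be told apart in such samples.

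SAUR genes encode small, short-lived proteins, and many of them are induced rapidly by auxin. SAUR19 and its close relatives bind and inhibit PP2C.D phosphatases, which keeps plasma membrane H+-ATPases phosphorylated and active, acidifies the cell wall and permits cell expansion. In seedlings the family is known for promoting hypocotyl elongation, for cotyledon opening in the light and for growth at warm temperature, and many members stand in tandem arrays.

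Of the 49 members, 29 were listed in 6 tandem groups and the other 20 are called dispersed, a label by list and not by distance. Among these, SAUR51 (AT1G75580, chr1:28377377-28378310) and SAUR52 (AT1G75590, chr1:28382813-28383769) stand close together. SAUR54 (AT1G19830) and SAUR53 (AT1G19840) have neighbouring locus numbers. SAUR76 (AT5G20820) stands beside SAUR70 (AT5G20810), which is not a member. The SAUR19 group holds SAUR19 (AT5G18010), SAUR20 (AT5G18020), SAUR21 (AT5G18030), SAUR22 (AT5G18050), SAUR23 (AT5G18060) and SAUR24 (AT5G18080) on chromosome 5. The chromosome 1 group, which includes SAUR63, a promoter of organ elongation, holds SAUR61 (AT1G29420), SAUR62 (AT1G29430), SAUR63 (AT1G29440), SAUR64 (AT1G29450), SAUR65 (AT1G29460), SAUR68 (AT1G29490), SAUR66 (AT1G29500) and SAUR67 (AT1G29510). The chromosome 3 group holds SAUR29 (AT3G03820), SAUR28 (AT3G03830), SAUR27 (AT3G03840) and SAUR26 (AT3G03850), known for natural variation in growth with temperature. Smaller groups stand on chromosome 4 (SAUR50, SAUR1, SAUR3, SAUR4 and SAUR5, from AT4G34760 to AT4G34810, and separately SAUR14, SAUR15 and SAUR16, from AT4G38840 to AT4G38860) and on chromosome 2 (SAUR7, SAUR6 and SAUR12, from AT2G21200 to AT2G21220). Among dispersed members, the results below turn on SAUR78 (AT1G72430) and SAUR30 (AT5G53590). The transcripts are short, 495 to 1205 bases with a median of 827, and 47 of 49 have a single exon.

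Coding sequences of the SAUR19 group were 87.7% to 95.2% identical between pairs, so the copies are shown first to make clear how reads tell them apart. The 75 coding bases below are aligned on SAUR19 coding positions 190 to 264, counted from the A of the start codon as 1, and bases that differ from the commonest base of the 6 copies (from that of SAUR19 in a tie) are in capitals. They were read from the TAIR10.1 assembly, at chr5:5963042-5963116 (minus strand) for SAUR19 and chr5:5974700-5974774 (minus strand) for SAUR22.
SAUR19: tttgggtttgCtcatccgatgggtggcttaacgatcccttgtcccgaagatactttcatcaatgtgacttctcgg
SAUR20: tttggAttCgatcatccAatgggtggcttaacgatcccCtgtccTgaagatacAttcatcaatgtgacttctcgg
SAUR21: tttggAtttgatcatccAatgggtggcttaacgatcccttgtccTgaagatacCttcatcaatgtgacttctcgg
SAUR22: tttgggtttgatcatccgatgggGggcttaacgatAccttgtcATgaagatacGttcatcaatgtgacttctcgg
SAUR23: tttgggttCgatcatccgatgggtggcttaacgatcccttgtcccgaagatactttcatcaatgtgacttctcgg
SAUR24: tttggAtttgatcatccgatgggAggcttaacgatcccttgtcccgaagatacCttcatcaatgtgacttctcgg
Of the 75 positions 10 varied, and any pair of copies differed at 2 to 8 of them. Over whole transcripts, 3 of 550 windows of 84 bases (the shorter of the read lengths) in SAUR19 also occurred in SAUR21, and none of the windows of SAUR20, SAUR22, SAUR23 or SAUR24 occurred in another gene. A read with equally good hits was counted on each of them, so shared windows inflate both copies. Sharing was larger elsewhere. SAUR63 shared 21.4% of its windows and SAUR67 16.3%, with each other and with AT1G29435, SAUR62 shared 12.4% with AT5G27780, SAUR7 11.4% with a second annotated transcript of the overlapping gene SAUR6, SAUR31 33.8% with AT4G00883 and SAUR8 2.1% with AT2G16575. The transcripts used for the other 41 members, that of SAUR6 included, shared none.

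Upstream sequence is shown for SAUR22, SAUR23, SAUR19 and SAUR66, the members called higher in sob3-6 at all 3 times, and for SAUR78, which moved the other way at ZT4. The 250 bases before each annotated transcript start were searched on both strands for the G-box CACGTG and the PBE-box CACATG, both recognized by PIF transcription factors, the auxin response element TGTCTC and the TCP motif GGNCCC. No motif contains another, and matches are in capitals. The windows are chr5:5975088-5975337, chr5:5975530-5975779, chr5:5963406-5963655, chr1:10320761-10321010 and chr1:27265807-27266056 of TAIR10.1, on the minus, plus, minus, plus and minus strand.
SAUR22: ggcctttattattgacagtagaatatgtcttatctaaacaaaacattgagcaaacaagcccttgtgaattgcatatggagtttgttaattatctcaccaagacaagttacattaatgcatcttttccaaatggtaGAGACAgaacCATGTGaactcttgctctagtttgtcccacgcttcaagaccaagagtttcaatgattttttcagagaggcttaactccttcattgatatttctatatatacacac
SAUR23: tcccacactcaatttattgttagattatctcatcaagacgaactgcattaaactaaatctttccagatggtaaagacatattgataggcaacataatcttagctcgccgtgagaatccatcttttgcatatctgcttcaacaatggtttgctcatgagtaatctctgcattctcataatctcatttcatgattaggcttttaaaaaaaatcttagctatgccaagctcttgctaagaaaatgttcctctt
SAUR19: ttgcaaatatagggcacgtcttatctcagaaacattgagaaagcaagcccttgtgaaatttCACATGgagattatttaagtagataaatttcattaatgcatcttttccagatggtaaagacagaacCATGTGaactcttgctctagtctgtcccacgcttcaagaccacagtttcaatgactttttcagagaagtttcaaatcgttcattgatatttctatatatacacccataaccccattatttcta
SAUR66: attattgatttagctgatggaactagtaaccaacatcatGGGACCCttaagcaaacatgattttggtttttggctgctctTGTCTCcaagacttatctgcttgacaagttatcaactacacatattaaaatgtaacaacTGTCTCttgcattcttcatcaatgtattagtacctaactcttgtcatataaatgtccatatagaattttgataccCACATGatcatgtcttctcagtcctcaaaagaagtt
SAUR78: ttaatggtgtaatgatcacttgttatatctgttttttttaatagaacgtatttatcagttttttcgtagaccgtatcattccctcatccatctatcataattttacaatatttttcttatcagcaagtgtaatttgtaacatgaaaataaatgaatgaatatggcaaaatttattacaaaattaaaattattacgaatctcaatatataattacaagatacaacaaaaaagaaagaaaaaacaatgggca
SAUR22 held 1 PBE-box, 100 to 105 bases before the start, and 1 TGTCTC match. SAUR19 held 2 PBE-boxes. SAUR66 held 1 PBE-box, 2 TGTCTC matches and 2 overlapping TCP matches, 1 on each strand. Within these 250 bases SAUR78 and SAUR23 held none of the 4. Within 1000 bases SAUR78 still held none, but SAUR23 held a PBE-box and a TGTCTC match. Both are the sites marked above for SAUR22, which lie between the divergent neighbours SAUR22 and SAUR23. Across the family, 26 of 49 windows of 250 bases (53.1%) held a PBE-box, against 11.1% of 27443 windows of protein-coding nuclear genes. In the chromosome 1 group 8 of 8 held it, in the chromosome 3 group 4 of 4, and among dispersed members 4 of 20 (20%). A TCP motif stood in 11 of 49 (22.4%, against 7.35%), TGTCTC in 7 of 49 (14.3%, against 10.9%) and the G-box in 1 of 49, SAUR59 (2.04%, against 6.49%). Tandem copies share sequence by descent, so their windows are not independent, and a match of 6 letters is a description and not a binding site. The median A+T content of the windows was 66.8% in members and 68.8% over all genes.

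Levels differed widely between members. Per kilobase of transcript and averaged over the 18 libraries, SAUR6 was highest at 38.9 CPM per kb, followed by SAUR14 (33.4), which like SAUR16 and SAUR50 is known from light-induced cotyledon opening, SAUR50 (32.3), SAUR32 (31.8), SAUR78 (30.8) and SAUR16 (26.5). The order differed between groups. SAUR6 was at 69.1 CPM per kb in SOB3-D at ZT4, but at ZT9 it was at 20.5 in SOB3-D and 15.7 in sob3-6, below SAUR78 (35.8 and 31.2) and SAUR50 (21.8 and 35.2), and in sob3-6 at ZT4 SAUR14 (55.1) stood above it (43.8). SAUR20, the highest of the SAUR19 group, stood at 13.7 CPM per kb. At the bottom, SAUR34 was at 0.0677, SAUR25 at 0.158, SAUR45 at 0.183 and SAUR10 at 0.191 CPM per kb. One read was worth 0.0903 to 0.166 CPM, and a count of 0 allows up to 3 reads, which is 0.271 to 0.499 CPM. SAUR25 had 0 reads in each of the 6 SOB3-D libraries of ZT4 and ZT9 and between 0 and 0.878 CPM elsewhere.

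The first comparison asked which members differed between sob3-6 and SOB3-D at each time. A gene was tested when the 6 libraries averaged 0.5 CPM or more, using limma on log2(CPM + 0.5), and adjusted p-values are Benjamini-Hochberg values over all transcripts tested. Fold changes on this scale understate the change of low genes. At ZT4, 42 of 49 members passed the filter, and calls were made at adjusted p under 0.05. Of these, 13 were higher in sob3-6 (31.0% of those tested, against a background of 4.29% of 20515 genes) and 2 were lower (4.76%, against 2.46%). At ZT9, 40 passed, 6 were higher (15.0%, against 6.00%) and 1 was lower (2.5%, against 4.03%). At ZT24, 44 passed, 10 were higher (22.7%, against 4.91%) and 1 was lower (2.27%, against 1.85%). These fits left out the pairing of same-numbered replicates, whose genotypes shared plates. Blocking on replicate number gained 6, 1 and 6 member calls at ZT4, ZT9 and ZT24 and lost none. Over all genes, higher calls then rose to 1239, 1941 and 1712 and lower calls to 780, 1429 and 965. The median log2 difference of the tested members was 0.53, 0.22 and 0.24 at the 3 times, beside 0.04, 0.03 and 0.01 over all genes tested.

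The share of higher among all called genes depended on scaling. At ZT4 881 genes were higher and 505 lower, 63.6% higher, which became 54.3% after TMM rescaling and 52.0% with DESeq2. At ZT9 1227 were higher and 824 lower, 59.8% higher, which became 49.8% with TMM and with DESeq2. At ZT24 72.7% were higher and 70.5% with TMM. Rescaling left 9, 5 and 10 members called higher at ZT4, ZT9 and ZT24, beside 685, 959 and 960 of all genes tested. The median of all genes moved by less than 0.1 on the log2 scale.

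Over the 3 times 17 members were called higher in sob3-6 at least once and 4 lower, none in both directions, and 28 were never called. SAUR19, SAUR22, SAUR23 and SAUR66 were called at all 3 times. The shares of all genes called at any time, or at all 3 times, are not given here. These counts over the 3 times therefore have no background beside them. In tandem groups 12 of 27, 5 of 26 and 10 of 28 tested members were higher at ZT4, ZT9 and ZT24, and among dispersed members 1 of 15, 1 of 14 and 0 of 16, beside 4.29%, 6.00% and 4.91% of all genes. The median log2 difference was 0.88, 0.45 and 0.64 in tandem members and 0.09, 0.08 and -0.03 in dispersed ones. The difference between those shares was not tested. Every sob3-6 library lay above every SOB3-D library for 21 of 42 members at ZT4 (background 17.4%), 11 of 40 at ZT9 (background 17.8%) and 16 of 44 at ZT24 (background 16.0%).

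**Figure D1:**
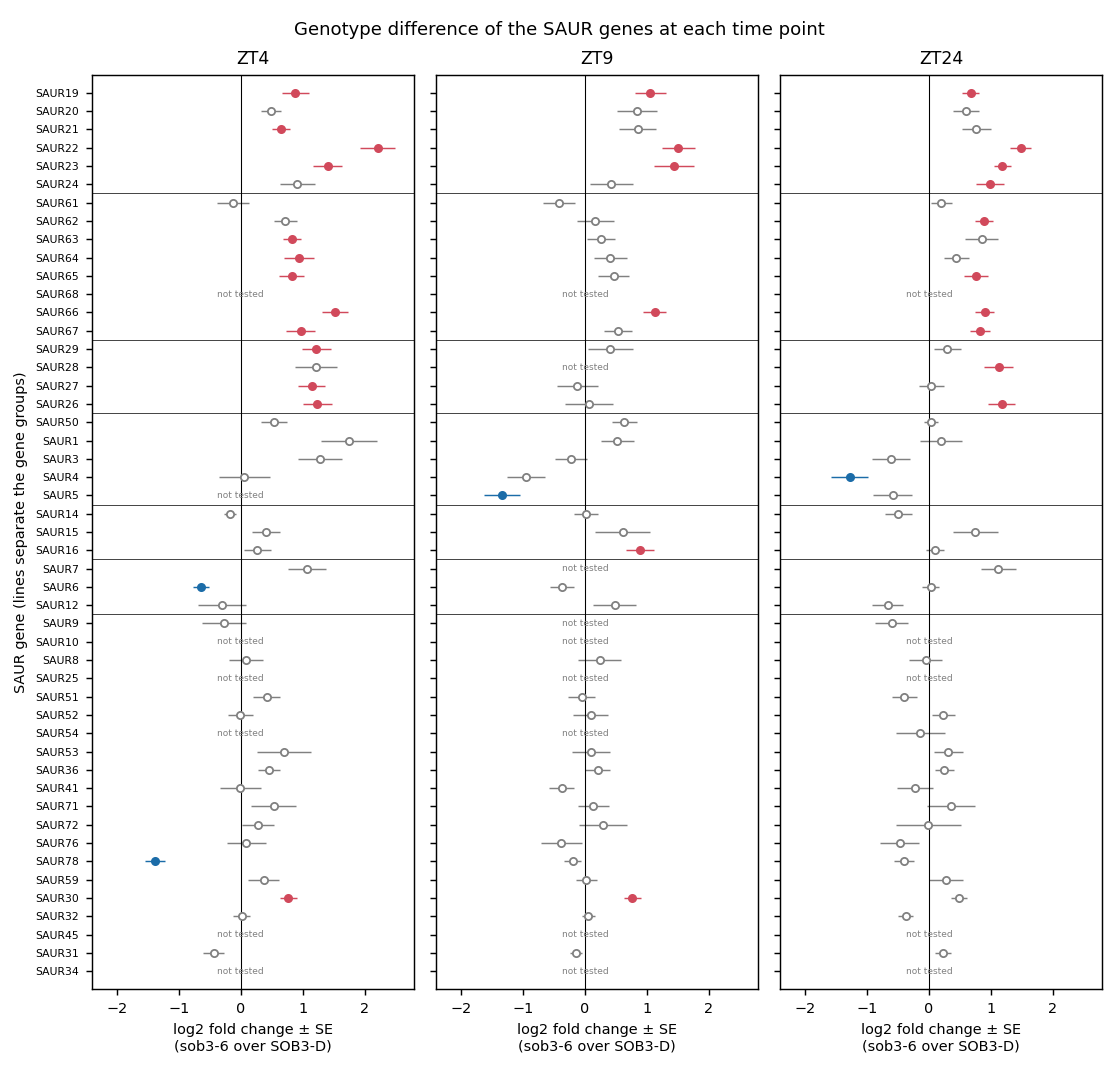
Log2 fold change of sob3-6 over SOB3-D with its standard error (x axis) for each of the 49 SAUR genes (y axis) at ZT4, ZT9 and ZT24, 3 libraries per genotype. Filled red points were higher and filled blue points lower at adjusted p under 0.05, open grey points were not called, and lines separate the tandem and dispersed groups. SAUR22 lies furthest to the right at ZT4, at 2.21, and SAUR78 furthest to the left, at -1.39.

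Of the 49 members, SAUR22 showed the largest difference at ZT4. It was at 0.639, 0.632 and 1.16 CPM in SOB3-D and at 3.66, 6.28 and 7.05 CPM in sob3-6, with no overlap. The log2 difference was 2.21 ± 0.29 (SE, n = 3 per genotype, limma adjusted p = 0.00315). At ZT9 the values were 0.496, 0.281 and 0.258 CPM against 1.79, 2.01 and 1.87 CPM. The SOB3-D libraries there sat at or near the level that 3 reads give, and the log2 difference of 1.51 ± 0.26 (limma adjusted p = 0.00885) became 2.20 with a pseudocount of 0.1 CPM and 1.11 with 1 CPM. At ZT24 SAUR22 was at 4.67, 6.94 and 7.48 CPM in SOB3-D and at 18.3, 17.8 and 18.9 CPM in sob3-6, again with no overlap, a log2 difference of 1.48 ± 0.17 (limma adjusted p = 0.00159). The call held in 6 of 6 fits that left out 1 library at ZT4 and at ZT24 and in 5 of 6 at ZT9, where it was lost without sob3-6 replicate 2 (adjusted p = 0.0542).

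SAUR23 is the divergently transcribed neighbour of SAUR22. At ZT4 it was at 1.64, 1.72 and 2.33 CPM in SOB3-D and at 4.36, 6.05 and 7.29 CPM in sob3-6. Its log2 differences were 1.40 ± 0.23, 1.43 ± 0.32 and 1.18 ± 0.14 at ZT4, ZT9 and ZT24 (limma adjusted p = 0.00875, 0.0245 and 0.00159), and the genotypes did not overlap at any time. The calls held in 5, 3 and 6 of 6 fits without 1 library. At ZT24 the 3 SOB3-D libraries lay between 6.44 and 7.17 CPM and the 3 sob3-6 libraries between 13.6 and 17.8 CPM. SAUR19, whose protein gave the group its role as an inhibitor of PP2C.D phosphatases, was at 3.19, 3.70 and 3.49 CPM in SOB3-D and 4.78, 8.38 and 7.77 CPM in sob3-6 at ZT4. Its differences of 0.88 ± 0.22, 1.05 ± 0.25 and 0.67 ± 0.14 (limma adjusted p = 0.0464, 0.0291 and 0.0208) were smaller than those of SAUR22, and the ZT4 call was lost with TMM rescaling, with edgeR, without a filter and with a 5 CPM filter (adjusted p = 0.0541 to 0.063) and in 5 of 6 fits without 1 library (adjusted p up to 0.139). The ZT9 call was lost with DESeq2 (adjusted p = 0.111), and the ZT9 and ZT24 calls were each kept in 2 of 6 fits without 1 library. Between the copies, a difference in fold change was not tested.

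SAUR20, SAUR21 and SAUR24 differed in the same direction with fewer calls. SAUR21 was at 7.85, 7.13 and 7.65 CPM in SOB3-D and 10.3, 13.3 and 13.1 CPM in sob3-6 at ZT4, without overlap, and rose by 0.65 ± 0.15 on the log2 scale (limma adjusted p = 0.0325, lost in 5 of 6 fits without 1 library and with DESeq2). At ZT24 its sob3-6 libraries ranged from 8.95 to 17.8 CPM against 6.70 to 8.92 CPM, and the difference of 0.77 ± 0.23 had an adjusted p of 0.0924, or 0.0472 with the replicate block. SAUR24 was called at ZT24, at 5.43, 2.68 and 3.997 CPM against 7.33, 8.84 and 8.40 CPM (0.98 ± 0.23, limma adjusted p = 0.0347), and lost the call in 5 of 6 fits without 1 library. SAUR20, at 7.39, 9.57 and 7.48 CPM against 11.7, 10.2 and 12.9 CPM at ZT4, was called at no time, with differences of 0.49, 0.84 and 0.60 and adjusted p-values of 0.103, 0.147 and 0.140. Summed over the 6 copies, SOB3-D libraries held 23.1 to 24.8 CPM at ZT4, 3.22 to 4.49 at ZT9 and 38.6 to 43.7 at ZT24. The sob3-6 libraries held more at each time and never overlapped them.

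**Figure D2:**
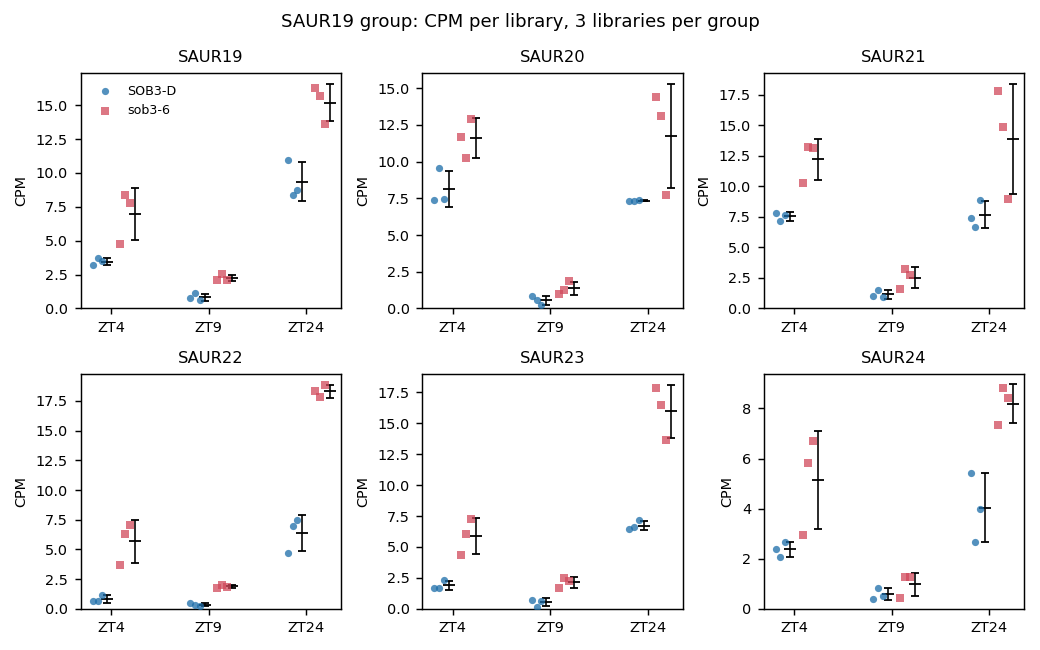
CPM (y axis) of SAUR19 to SAUR24 in each library at ZT4, ZT9 and ZT24 (x axis). Blue circles are SOB3-D and red squares sob3-6, 3 libraries each, and black bars give the mean ± SD. All 6 copies were low at ZT9 in both genotypes, and SAUR22 at ZT24 lay between 17.8 and 18.9 CPM in sob3-6 and at or below 7.48 CPM in SOB3-D.

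In the chromosome 1 group, SAUR66 differed at every time. It was at 3.19, 2.71 and 4.49 CPM in SOB3-D and 9.14, 10.7 and 12.6 CPM in sob3-6 at ZT4, a log2 difference of 1.53 ± 0.21 (limma adjusted p = 0.00366). At ZT9 the values were 1.86, 2.25 and 2.58 against 5.13, 5.89 and 5.25 CPM, and at ZT24 they were 5.93, 4.75 and 6.46 against 12.2, 10.01 and 10.9 CPM. No group overlapped, the differences were 1.13 ± 0.19 and 0.90 ± 0.15 (limma adjusted p = 0.00787 and 0.00942), and the call held in 6 of 6 fits without 1 library at each time. SAUR63 was called at ZT4 alone, at 7.12, 7.94 and 7.15 CPM against 11.5, 14.4 and 15.1 CPM (0.84 ± 0.15, limma adjusted p = 0.0114), and with the block also at ZT24 (limma adjusted p = 0.0176, against 0.1 without). SAUR62 was called at ZT24, at 4.42, 4.02 and 4.61 CPM against 9.65, 8.25 and 7.64 CPM (0.89 ± 0.15, limma adjusted p = 0.00873), and at ZT4 with the block (adjusted p = 0.0243, against 0.0553). SAUR67 was called at ZT4 and ZT24 (0.97 and 0.83), SAUR65 at ZT4 and ZT24 (0.83 and 0.76) and SAUR64 at ZT4 (0.94). The ZT4 calls of SAUR64, SAUR65 and SAUR67, with adjusted p-values of 0.0488, 0.0435 and 0.0448, were lost in each of the 6 fits without 1 library, and also with TMM rescaling and edgeR. At ZT24 the SAUR67 call (limma adjusted p = 0.0165) was kept in 2 of 6 such fits. That of SAUR65 (limma adjusted p = 0.0476) was kept in 1 of 6 and was lost with DESeq2, without a filter and with a 5 CPM filter. SAUR61 differed by -0.12, -0.41 and 0.20 and was not called, and SAUR68, at 0 to 0.764 CPM, was not tested.

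The chromosome 3 group was higher in sob3-6 at ZT4. SAUR26 was at 1.09, 0.993 and 0.998 CPM in SOB3-D and 2.39, 3.84 and 3.23 CPM in sob3-6 at that time (1.24 ± 0.23, limma adjusted p = 0.0151). SAUR27 went from 2.19, 1.44 and 1.33 to 4.08, 4.19 and 4.30 CPM, and SAUR29 from 1.09, 1.08 and 2.00 to 3.66, 4.07 and 3.71 CPM, each without overlap and with log2 differences of 1.14 ± 0.21 and 1.22 ± 0.24 (limma adjusted p = 0.0151 and 0.0184). Without 1 library the ZT4 calls of SAUR26, SAUR27 and SAUR29 were kept in 3, 2 and 3 of 6 fits. SAUR28 differed by 1.22 ± 0.34 at ZT4 with an adjusted p of 0.0667, or 0.0322 with the block, and was called at ZT24, at 1.01, 1.58 and 0.820 CPM against 3.05, 2.83 and 3.16 CPM (1.13 ± 0.23, limma adjusted p = 0.0212, kept in 1 of 6 fits without 1 library and lost with DESeq2). At ZT24 SAUR26 was called as well (1.17 ± 0.22, limma adjusted p = 0.0125, lost without sob3-6 replicate 1), whereas SAUR27 and SAUR29 differed by 0.04 and 0.30 and overlapped between genotypes. At ZT9 none of the 3 tested members was called, and SAUR28 was too low to be tested.

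SAUR78, which has been linked to ethylene receptors, moved the other way. At ZT4 it was at 51.6, 60.8 and 54.7 CPM in SOB3-D and 25.2, 22.6 and 16.1 CPM in sob3-6, without overlap, and was lower by -1.39 ± 0.16 on the log2 scale (limma adjusted p = 0.00221). This call held in 6 of 6 fits without 1 library and in each of 10 other alternatives. At ZT9 the genotypes overlapped, at 38.3, 50.7 and 40.3 CPM against 32.7, 36.6 and 43.5 CPM, and the difference was -0.19 ± 0.14 (adjusted p = 0.447). At ZT24 SAUR78 was at 35.1, 36.2 and 39.2 CPM in SOB3-D and 22.8, 25.3 and 36.9 CPM in sob3-6, a difference of -0.40 ± 0.16 (limma adjusted p = 0.187, or 0.0394 with the block).

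The 3 other members called lower in sob3-6 rested on fewer fits. SAUR6, the member with the highest average level per length, was at 43.4, 60.5 and 46.4 CPM in SOB3-D and 31.5, 30.0 and 33.7 CPM in sob3-6 at ZT4 (-0.64 ± 0.13, limma adjusted p = 0.0241, kept in 2 of 6 fits without 1 library), and overlapped at ZT9 and ZT24. SAUR5 was at 1.49, 2.39 and 1.29 CPM against 0.335, 0.376 and 0.375 CPM at ZT9 (-1.33 ± 0.29, limma adjusted p = 0.0208, kept in 3 of 6 fits without 1 library), where the sob3-6 libraries held 3 reads each. With pseudocounts of 0.1 and 1 CPM the SAUR5 difference was -1.93 and -0.98. SAUR4 was at 1.89, 3.53 and 2.05 CPM against 0.611, 0.471 and 1.09 CPM at ZT24 (-1.28 ± 0.30, limma adjusted p = 0.0356), a call kept in 1 of 6 fits without 1 library and lost with DESeq2 (adjusted p = 0.0543). With the block, SAUR78 and SAUR32 (-0.38, adjusted p = 0.0401 against 0.118) made 3 lower members at ZT24 in place of 1. Over all genes the block raised the lower calls at ZT24 from 379 to 965 of 20530.

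Of the remaining members, SAUR30 and SAUR16 were called. SAUR30 was at 14.4, 10.9 and 11.0 CPM in SOB3-D and 22.4, 21.2 and 19.01 CPM in sob3-6 at ZT4, and at 7.43, 9.40 and 8.24 against 14.1, 15.7 and 13.9 CPM at ZT9, without overlap at either time. Its differences were 0.77 ± 0.14 at both times (limma adjusted p = 0.0142 and 0.0104) and 0.48 ± 0.13 at ZT24 (0.0613, or 0.0418 with the block). Without 1 library the SAUR30 calls were kept in 2 of 6 fits at ZT4 (adjusted p up to 0.0735) and in 4 of 6 at ZT9 (up to 0.0598). SAUR16 was higher at ZT9 alone, at 2.23, 2.95 and 2.58 CPM against 4.02, 5.02 and 6.87 CPM (0.89 ± 0.23, limma adjusted p = 0.0393), a call lost with TMM rescaling, edgeR and DESeq2 (adjusted p = 0.058 to 0.0779) and in 5 of 6 fits without 1 library (up to 0.134). Besides SAUR32, 4 members that were called at no time without the block reached the threshold in the genotype comparison with it. They were SAUR7 at ZT4 and ZT24 (1.07 and 1.12, adjusted p = 0.0351 and 0.039), SAUR50 at ZT4 and ZT9 (0.54 and 0.64, adjusted p = 0.0171 and 0.014), SAUR1 at ZT4 (1.75, adjusted p = 0.0224) and SAUR3 at ZT4 (1.28, adjusted p = 0.0482). Without the block their adjusted p-values were 0.0769 and 0.0504, 0.168 and 0.0784, 0.0509, and 0.0664. Over all genes, higher calls rose with the block to 1239, 1941 and 1712 at ZT4, ZT9 and ZT24, from 881, 1227 and 1008. SAUR72, a relative of SAUR41, varied widely between replicates. At ZT24 it was at 6.06, 18.8 and 11.9 CPM in SOB3-D and 6.72, 7.30 and 26.6 CPM in sob3-6. Members not named here were not called between genotypes at any time.

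**Figure D3:**
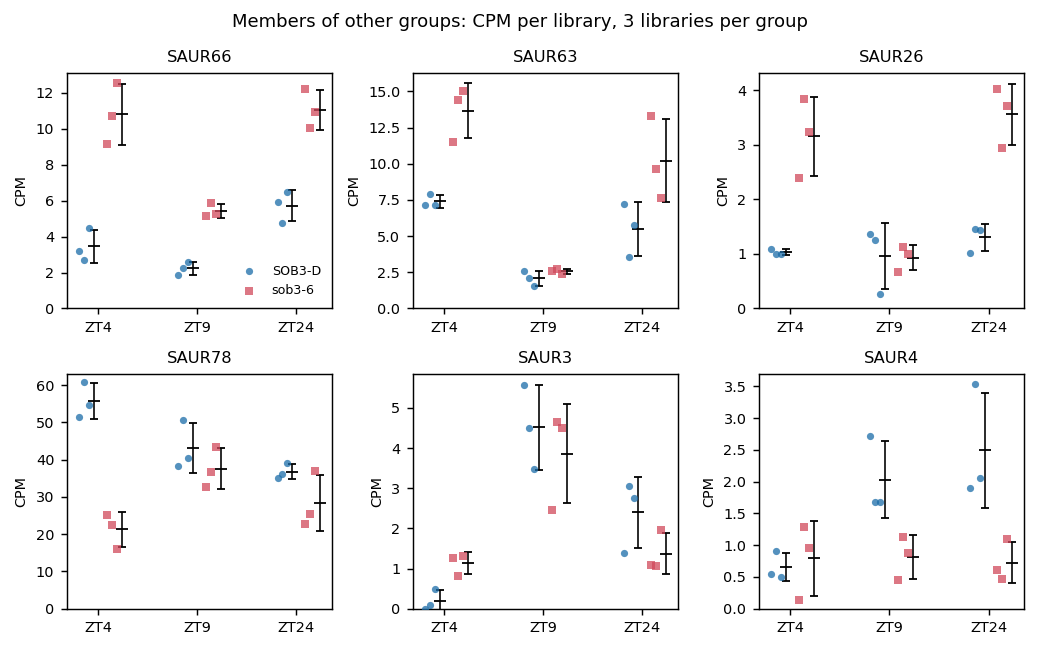
CPM (y axis) of 6 members outside the SAUR19 group in each library at ZT4, ZT9 and ZT24 (x axis), with blue circles for SOB3-D, red squares for sob3-6 and black bars for the mean ± SD of 3 libraries. SAUR66 is higher in sob3-6 at each time, and SAUR78 in sob3-6 lies between 16.1 and 25.2 CPM at ZT4, below all SOB3-D libraries.

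Counts of higher calls fell in most fits that left out 1 library and rose in no such fit. At ZT4 the 13 higher members became 8 without SOB3-D replicate 1, 3 without SOB3-D replicate 2, 6 without SOB3-D replicate 3, 8 without sob3-6 replicate 1, 4 without sob3-6 replicate 2 and 8 without sob3-6 replicate 3. At ZT9 the 6 became 2, 4 and 4 without SOB3-D replicates 1, 2 and 3 and 6, 1 and 5 without those of sob3-6. At ZT24 the 10 became 7, 6 and 6 without those of SOB3-D and 4, 5 and 10 without those of sob3-6. Such fits have fewer samples and so less power, and their calls over all genes are not given here.

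The second question was whether the genotype difference itself changed over the day, taken from the interaction term of a limma model over all 18 libraries, with 43 of 49 members tested. Between ZT4 and ZT9 it changed for 1 member (background 1.46% of 20567 genes), between ZT4 and ZT24 for 2 (background 2.95%) and between ZT9 and ZT24 for 0 (background 4.02%), where 5 members had an unadjusted p under 0.05 and edgeR also called 0. With the block, SAUR16 was called between ZT9 and ZT24 (-0.78 ± 0.31, adjusted p = 0.0471, against 0.193) and SAUR31 between ZT4 and ZT24 (0.66 ± 0.20, adjusted p = 0.0328, against 0.0772). The block also raised these calls over all 20567 genes. Between ZT9 and ZT24 positive calls rose from 522 to 877 and negative calls from 304 to 563. Between ZT4 and ZT24 positive calls rose from 416 to 753 and negative calls from 191 to 422. Among all genes without the block, 68.5% of the calls between ZT4 and ZT24 were positive and 80.3% with TMM rescaling. For SAUR78 the difference at ZT9 exceeded that at ZT4 by 1.19 ± 0.25 (limma adjusted p = 0.0184) and that at ZT24 exceeded it by 0.99 ± 0.25 (limma adjusted p = 0.0366). For SAUR3 the difference fell from ZT4 to ZT24 by 1.89 ± 0.45 (limma adjusted p = 0.0301). At ZT4 the SOB3-D libraries held SAUR3 at 0, 0.0903 and 0.499 CPM, at or under the level of 3 reads, and at 1.27, 0.815 and 1.31 CPM in sob3-6, whereas at ZT24 it was at 1.39, 3.04 and 2.77 CPM against 1.10, 1.06 and 1.96 CPM. The SAUR3 estimate was -3.17 with a pseudocount of 0.1 CPM and -1.35 with 1 CPM. Without replicate 1 neither member was called between ZT4 and ZT24 (adjusted p = 0.0799 for SAUR78 and 0.128 for SAUR3), nor without replicate 2 (0.399 and 0.452), and without replicate 3 SAUR3 was (0.0473) and SAUR78 was not (0.125). For SAUR78 between ZT4 and ZT9 the adjusted p was 0.0823, 0.31 and 0.0519 without replicates 1, 2 and 3. A member called at one time and not at another is therefore not shown to differ between times. The interactions of SAUR78 were called with all replicates but in no fit without 1 replicate number. SAUR3 was called between genotypes at no time without the block.

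The third question was how the members changed over the day within a genotype. In SOB3-D 20 of 43 tested members were lower at ZT9 than at ZT4 (46.5%, against a background of 12.5%) and 7 were higher (16.3%, against 21.3%). In sob3-6 24 were lower (55.8%, against 9.34%) and 3 were higher (6.98%, against 16.4%). From ZT9 to ZT24, 25 members were higher in SOB3-D (58.1%, against 18.3%) and 1 was lower (2.33%, against 19.0%), and in sob3-6 23 were higher (53.5%, against 12.3%) and 2 lower (4.65%, against 13.6%). From ZT4 to ZT24, 17 were higher (39.5%, against 22.0%) and 5 lower (11.6%, against 15.1%) in SOB3-D, and 8 higher (18.6%, against 14.9%) and 3 lower (6.98%, against 10.4%) in sob3-6. These contrasts share libraries with each other. In sob3-6, 63.7% of all genes called between ZT4 and ZT9 were higher at ZT9 and 53.4% with TMM rescaling. For these contrasts the block joined the same replicate number across times, a pairing that was not checked. With the block, 5 members in place of 3 were higher at ZT9 than at ZT4 in sob3-6. SAUR36 and SAUR41 were the members added by the block (adjusted p = 0.0357 and 0.0384, against 0.0652 and 0.0697). It also added SAUR3 (adjusted p = 0.0327, against 0.0507) to the members lower at ZT24 than at ZT9 in SOB3-D, 2 in place of 1. For ZT24 against ZT4 in SOB3-D it added SAUR64, SAUR27 and SAUR72 (adjusted p = 0.0411, 0.0497 and 0.0429, against 0.0539, 0.0548 and 0.108) to those higher. There it added SAUR16 (0.0483, against 0.118) to those lower. Over all genes the block raised these calls too. In sob3-6, genes higher at ZT9 than at ZT4 rose from 3369 to 3861 of 20567. In SOB3-D, genes lower at ZT24 than at ZT9 rose from 3903 to 4261. Between ZT4 and ZT24 in SOB3-D, higher calls rose from 4524 to 5030 and lower calls from 3105 to 3436.

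The low point at ZT9 was shared by most tandem members. In SOB3-D, SAUR16 stood at 31.0, 44.2 and 53.7 CPM at ZT4, fell to 2.23, 2.95 and 2.58 CPM at ZT9 and reached 25.7, 36.9 and 30.4 CPM at ZT24. Its ZT9 against ZT4 difference was -3.79 ± 0.22 in SOB3-D and -3.17 ± 0.22 in sob3-6. All 6 SAUR19-group copies were lower at ZT9 than at ZT4 in both genotypes and higher at ZT24 than at ZT9. SAUR20 fell by 3.06 on the log2 scale in SOB3-D and by 2.71 in sob3-6 from ZT4 to ZT9, whereas SAUR22 fell by 0.62 and 1.32 and then rose by 3.01 and 2.98 to ZT24. SAUR22 was higher at ZT24 than at ZT4 (2.39 in SOB3-D and 1.66 in sob3-6), as were SAUR19 and SAUR23, while SAUR20 and SAUR21 differed by at most 0.13 from their ZT4 levels in either genotype and were not called. In the chromosome 1 group 6 of 7 tested members fell from ZT4 to ZT9 in each genotype, SAUR61 being the exception, and SAUR62 fell by 1.65 and 2.20. In the chromosome 3 group 1 of 4 fell in SOB3-D and 4 of 4 in sob3-6. SAUR14 and SAUR15 also fell in both genotypes, and SAUR15 is the auxin-induced SAUR-AC1.

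A smaller set was higher at ZT9 than at ZT4, and its members were picked out after their values were seen. SAUR3 rose by 2.89 on the log2 scale in SOB3-D, from 0 to 0.499 CPM up to 3.48 to 5.57 CPM, and by 1.39 in sob3-6. SAUR71 rose from 0.365 to 0.542 CPM at ZT4 up to 3.09 to 5.05 CPM at ZT9 in SOB3-D (2.12) and rose by 1.73 in sob3-6. SAUR1, SAUR4 and SAUR5, neighbours of SAUR3, rose by 2.06, 1.13 and 1.25 in SOB3-D, where SAUR41, a promoter of cell expansion (1.16), and SAUR36, linked to leaf senescence (0.72), rose as well. In sob3-6 the third member that rose was SAUR78 (0.82 ± 0.17), which differed by -0.37 in SOB3-D without a call.

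**Figure D4:**
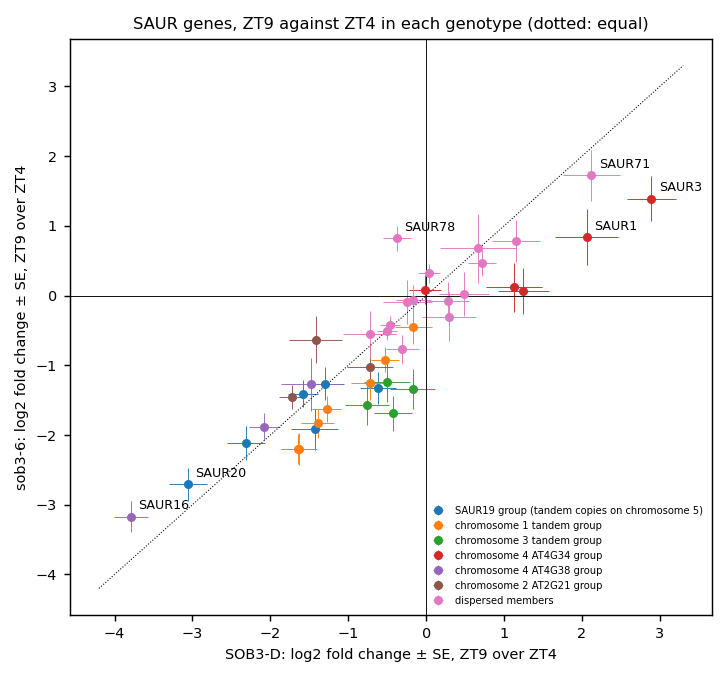
Log2 fold change of ZT9 over ZT4 with its standard error in SOB3-D (x axis) and sob3-6 (y axis) for the 43 tested SAUR genes, coloured by gene group, with a dotted line where both are equal. SAUR16 lies lowest in both, at -3.79 and -3.17, SAUR3 and SAUR71 lie at the upper right, and SAUR78 stands above the line.

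Genes that act with the SAUR proteins were read from lists chosen by annotation. Among 9 PP2C.D phosphatases, the targets of SAUR19-type proteins, 2, 3 and 2 were higher in sob3-6 at ZT4, ZT9 and ZT24, beside 4.29%, 6.00% and 4.91% of all genes, and none lower. Their median log2 difference was 0.17, 0.25 and 0.10, beside 0.04, 0.03 and 0.01 over all genes. APD7 was at a mean of 13.6 CPM in SOB3-D and 76.2 CPM in sob3-6 at ZT4 (2.49 ± 0.27, limma adjusted p = 0.0016), APD9 differed by 1.17 at ZT9, and AT3G55050 was called at each time (0.47, 0.73 and 0.59). Of the plasma membrane H+-ATPase genes, 9, 10 and 9 were tested and limma called 0 at each time, with 2, 3 and 0 at an unadjusted p under 0.05, while edgeR called 0, 1 and 0. Among the Aux/IAA genes, which encode repressors of auxin response and are themselves auxin-induced, 7 of 23, 10 of 24 and 10 of 23 were higher at ZT4, ZT9 and ZT24, against the same background, and 1, 0 and 1 lower (background 2.46%, 4.03% and 1.85%), with medians of 0.25, 0.35 and 0.29. IAA29 differed by 2.51 at ZT4, IAA6 by 2.44 and IAA19 by 2.07 at ZT24. Among GH3 genes, which encode enzymes that conjugate auxin and related acids, 3 of 8, 1 of 9 and 3 of 8 were higher and none lower, with medians of 0.54, -0.13 and 0.40. WES1 differed by 1.06 at ZT24, GH3.9 by 1.04 and DFL1 by 0.80 at ZT4.

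Of the 28 further loci with a SAUR name and values, 15 to 16 passed the filter at each time. At ZT4, ZT9 and ZT24, 1 of 15, 1 of 16 and 2 of 15 were higher in sob3-6 and none lower, beside 4.29%, 6.00% and 4.91% of all genes higher. Their median log2 differences were -0.22, -0.01 and -0.21. SAUR13 had 2, 1 and 0 reads in the SOB3-D libraries at ZT4 and 22, 28 and 31 reads in sob3-6, a ratio of 31.5 per mapped read with a 95% exact binomial interval of 10.4 to 156 that covers counting error only. The log2 difference was 2.71 (limma adjusted p = 0.000792), above that of SAUR22. At ZT9 the SAUR13 ratio was 1.35 (interval 0.814 to 2.26) and the genotypes overlapped, and at ZT24 it was 3.02 (2.26 to 4.08). SAUR57 differed by 1.79 at ZT9 and 2.12 at ZT24, and by 1.78 at ZT4 without a call (adjusted p = 0.0549).

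The tissue markers were measured beside these results. Of 10 root markers limma called 0, 1 and 0 and edgeR the same numbers (4, 3 and 0 had an unadjusted p under 0.05), the 1 by limma being CASP5, higher in sob3-6 at ZT9 (1.12). Their sum ranged from 67.2 to 132 CPM in SOB3-D and 106 to 118 CPM in sob3-6 at ZT4, from 81.4 to 97.0 and 77.2 to 129 CPM at ZT9, and from 61.3 to 81.8 and 67.0 to 85.6 CPM at ZT24, overlapping each time. Of 5 photosynthetic shoot markers limma called 0, 3 and 0 and edgeR 0, 2 and 0 (0, 4 and 2 had an unadjusted p under 0.05), LHCB2.1, LHCA1 and LHCA3 being higher in sob3-6 at ZT9 (1.92, 0.69 and 0.51), and their sum overlapped between genotypes at each time. No marker of either list was at 0 throughout a group, and the part of tissue make-up in the SAUR differences was not tested.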

How the data were processed

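RNA-seq libraries were made from whole seedlings of SOB3-D and sob3-6 at ZT4, ZT9 and ZT24. The authors mapped single reads with Bowtie to TAIR10 cDNA (versions not given in the sources used here), kept all best hits and deposited, for each of 32811 transcripts, a signal they name CPM. Reads with several equal hits were counted on each, so a library sums to 1546178 to 1573550. The library kit was stranded. Whether strand was used in counting is not given in the sources used here. Multiples of the smallest step gave whole reads for 100% of values (tolerance 0.05 reads). All replicates of a group differed by more than sampling noise (chi-square per degree of freedom 2.66 to 14.3).

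limma 3.58.1 (R 4.3.3) was fitted to log2(CPM + 0.5) of transcripts averaging 0.5 CPM or more, two-sided, separately at each time for the genotype comparison and over the 18 libraries for interactions and time. For each gene the transcript with the highest mean was taken. On the recovered reads, edgeR 4.0.16 (quasi-likelihood) called 652 genes higher and 541 lower in sob3-6 for ZT4. For ZT9 it called 933 higher and 934 lower, and for ZT24 958 higher and 389 lower. DESeq2 1.42.0 was another alternative. Fits were tested on simulated data. Gene names, positions and sequences came from RefSeq TAIR10.1, while the reads were mapped to TAIR10, and all 49 transcript identifiers matched. RefSeq gives AT1G29510 the symbol SAUR68, which is also a synonym of AT1G29490. AT1G29490 is called SAUR68 here and AT1G29510 by its synonym SAUR67. Members, lists, named genes and motifs were chosen with earlier results of these data known. Values per library were given for the SAUR19 group, for members called with the same direction in 3 of 3 replicate pairs (at most 8 each way) and for those with the largest time or interaction contrasts. Genotypes of a replicate set shared plates by the study's methods, so replicate numbers pair the genotypes within a time. After removing group means, same-numbered libraries of a time correlated at 0.0935 to 0.32 and others at -0.225 to 0.11. Pairing across times was not checked. Alternatives were blocking on replicate number, pseudocounts of 0.1 and 1 CPM, no filter, a minimum of 5 CPM, TMM rescaling, 1 fit of all libraries, any transcript per gene and leaving out each library.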

Additional observations from a re-analysis of the deposited data

Results flagged for a closer look

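Groups held 3 libraries, so none was tested for single outlying libraries. For 2 members of 43 tested the genotype difference itself was called different between times by the interaction test. Between ZT4 and ZT9 1 member was called (background 1.46% of 20567 genes), and between ZT4 and ZT24 2 were (background 2.95%). Without 1 replicate number the SAUR78 calls held in no fit, and that of SAUR3 held only without replicate 3. For SAUR78 the log2 difference of sob3-6 from SOB3-D was higher at ZT9 than at ZT4 by 1.19 and higher at ZT24 than at ZT4 by 0.99, since at ZT4 alone it was lower in sob3-6 without overlap. For SAUR3 the difference changed by -1.89 from ZT4 to ZT24, and the SOB3-D libraries of ZT4 held at most 3 reads each.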

How the results depend on the processing

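Counts below are of SAUR members called, higher then lower. With a minimum of 5 CPM, which tests fewer members, 5 were higher at ZT4, 1 higher and 0 lower at ZT9 and 0 lower at ZT24 in sob3-6 against SOB3-D, and 1 interaction was called between ZT4 and ZT24. With the same minimum the time contrasts gave 1 higher and 13 lower (ZT9 against ZT4), 7 higher (ZT24 against ZT4) and 15 higher (ZT24 against ZT9) in SOB3-D, and 1 and 14, 4 higher, and 13 and 1 in sob3-6. The members tested and the calls over all genes with this minimum are not given here. These smaller counts therefore do not show that calls were lost among members still tested. With the replicate block, 3 were lower at ZT24, 1 interaction was called between ZT9 and ZT24, 2 were lower in SOB3-D from ZT9 to ZT24 and 5 were higher in sob3-6 from ZT4 to ZT9. The block gained 22 member calls over all comparisons, named in the report, and changed no other member call. Of these, 6, 1 and 6 were gained between genotypes at ZT4, ZT9 and ZT24. Over all genes it raised the higher calls at these times from 881, 1227 and 1008 to 1239, 1941 and 1712. It raised the lower calls at ZT24 from 379 to 965, and all-gene calls of interactions and time contrasts rose as well. edgeR with the block gave 3 lower at ZT24 and DESeq2 gave 0. A pseudocount of 1 CPM gave 2 lower in SOB3-D from ZT9 to ZT24, and no filter gave 1 lower in sob3-6 from ZT4 to ZT24. Taking any transcript per gene was the same fit, since each member has 1.

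Without 1 library, the genotype comparison gave 3 to 8 higher and 1 to 2 lower at ZT4, 1 to 6 and 0 to 1 at ZT9, and 4 to 10 and 0 to 2 at ZT24. Without 1 replicate number, the interactions gave 0 to 0 (ZT9 against ZT4), 0 to 2 (ZT24 against ZT4) and 0 to 0 (ZT24 against ZT9). The time contrasts then gave, in SOB3-D, 4 to 7 and 15 to 16 (ZT9 against ZT4), 6 to 16 and 2 to 7 (ZT24 against ZT4) and 21 to 22 and 1 to 2 (ZT24 against ZT9), and in sob3-6 2 to 4 and 19 to 20, 4 to 8 and 1 to 4, and 20 to 21 and 1 to 3.

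The sign turned for values that were not called. SAUR26 at ZT9 (0.07) was -0.0911 with edgeR, -0.0671 with DESeq2, -0.0703 with edgeR and the block, and -0.353 to 0.2959 without 1 library. SAUR27 was -0.0002 with DESeq2 and -0.0684 to 0.2009 without 1 library at ZT24 (0.04), and -0.4069 to 0.13 without 1 library at ZT9 (-0.12). SAUR4 at ZT4 (0.06) was -0.0497 with a pseudocount of 0.1 CPM and -0.2347 to 0.5025 without 1 library. Other such ranges without 1 library were -0.1071 to 0.1271 for SAUR6 and -0.0194 to 0.236 for SAUR16 at ZT24, and -0.0173 to 0.4322 for SAUR62 and -0.379 to 0.0368 for SAUR3 at ZT9. The cause was not tested. Values at or near 3 reads a library, as for SAUR22 and SAUR5 at ZT9 and SAUR3 at ZT4, limit the size of those differences.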
